A study of Danio rerio with 10 samples.

Results

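The genes described here were higher in zebrafish embryos injected with the Atg7 morpholino than in control embryos, and lower again in embryos that received the Bdh2 morpholino as well. Morpholinos are synthetic oligonucleotides that pair with a transcript and stop its translation or splicing. Expression was read on 1-colour Affymetrix arrays for zebrafish, on which a set of short probes (a probe set) reads each transcript, and values are log2 intensities. A probe set was a member when the mean of the Atg7 arrays exceeded the control mean by at least 0.5, the dual mean lay below the Atg7 mean by at least 0.4 (a difference of -0.4 or lower), and the 3 Atg7 arrays lay above all 3 control arrays and all 3 dual arrays. Names starting with mmp, fos, jun, socs, irf, cts or krt and 11 single genes of other well-described groups were left out. The values were met by 94 probe sets, of which 23 were left out by name, so that 71 of 15502 probe sets were members. The annotation gave 1 gene symbol to 49 members, standing for 48 genes, several symbols to 1 member and none to 21.

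All groups were whole embryos of a wild-type strain at 72 h after fertilization, injected at the 1- to 2-cell stage. The injected volume was 1 to 2 nL, and the listed morpholino concentration was 130 micromol/L. There were 3 arrays of Atg7 morphants, 3 of embryos given both the Atg7 and the Bdh2 morpholino (dual morphants), 1 of Bdh2 morphants and 3 of control morphants. The labels do not say which oligonucleotide the controls received, whether 130 micromol/L held for each morpholino of the pair or for their sum, or whether replicates were separate clutches. P-values therefore reflect the spread among these samples, which may be technical. A morpholino knocks a gene down for a limited time and leaves the gene itself intact.

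Atg7 is the enzyme that activates the ubiquitin-like proteins Atg12 and Atg8 for conjugation, a step that autophagosomes need to form. Bdh2 is a dehydrogenase of the cytosol that mammalian cells use to make a siderophore, an iron-binding small molecule. Embryos under stress are known to switch on immediate early genes, p53 targets and acute phase genes, which are induced by injury, DNA damage and cytokines.

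The arrays of each triplicate group correlated with each other at 0.997 to 0.999 (Pearson's r across all probe sets; these are not independent of each other), and array medians lay between 6.33 and 6.38. The bdh2 transcript averaged 7.21 in Atg7, 7.28 in dual, 7.47 in Bdh2 and 7.17 in control arrays, and none of the probe sets carried the name atg7. Neither transcript serves as a check of the labels, since a morpholino need not lower its target's RNA. Actin controls at the 3 prime end minus those at the 5 prime end, which reflect RNA quality, differed by 3.86 to 4.05 in Atg7, 3.83 to 3.91 in dual, 4.30 in Bdh2 and 3.41 to 3.53 in control arrays. The actin difference was higher in Atg7, dual and Bdh2 arrays than in control arrays. The same difference for GAPDH controls was 1.53 to 1.77 in Atg7, 1.67 to 1.72 in dual, 1.70 in Bdh2 and 1.53 to 1.63 in control arrays. For GAPDH the Atg7 and control arrays thus overlapped. The part of RNA quality in the results was not tested. Of 15 measured red blood cell markers, 12 were lower and 0 higher in Atg7 minus control past the threshold given below. Their summed level (log2) was 13.8 in each Atg7 array against 14.6 to 14.7 in control arrays. The sum was lower still in dual arrays, at 13.045 to 13.121, and stood at 13.274 in the Bdh2 array. Of the 15 markers, 14 were lower and 0 higher in dual minus control, and 6 lower and 0 higher in dual minus Atg7. In whole embryos, fewer cells of a type and less RNA per cell cannot be told apart.

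The differences that chose the members are given as a description, without a test. Over the 71 members Atg7 minus control ranged between 0.50 and 1.73 with a median of 0.63, where the median of all probe sets was -0.0092. Dual minus Atg7 ranged between -2.49 and -0.40 with a median of -0.75, and the median of all probe sets was 0.012. Only 6 members were at least 2-fold higher in Atg7 than in control arrays, whereas 23 were at least 2-fold lower in dual than in Atg7 arrays. In the fit across all probe sets 71 of 71 members passed the threshold of an adjusted p of 0.05 as higher in Atg7 minus control, beside 6.26% of all probe sets (9.91% in either direction), and 71 of 71 as lower in dual minus Atg7, beside 17.2% (33% in either direction). The rule used both contrasts, so nothing is read from these counts. The median level of the members was 6.78 in Atg7 and 6.002 in control arrays, against 6.38 and 6.36 for all probe sets, and their spread between replicates was that of the array as a whole (median SD 0.086 in Atg7, 0.088 in dual and 0.074 in control arrays, against 0.087, 0.081 and 0.074 over all probe sets).

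**Figure D1:**
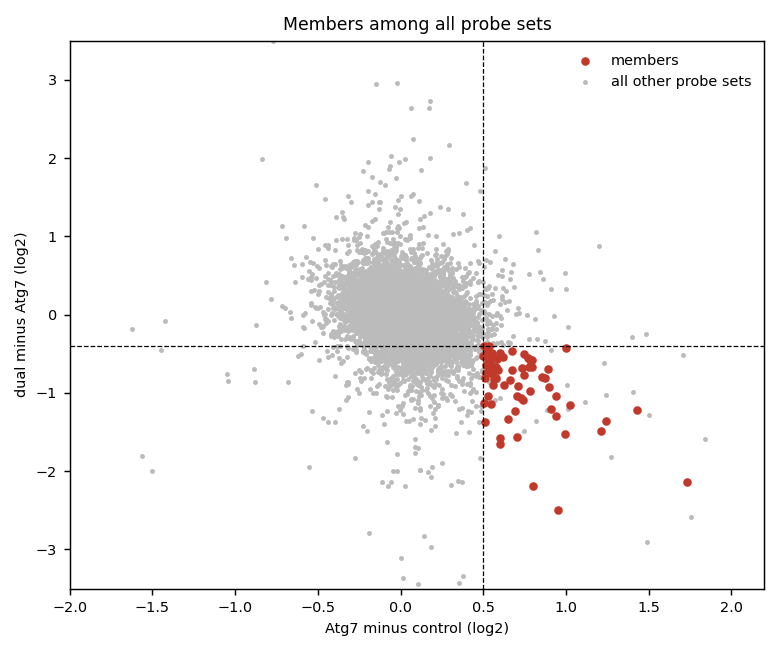
Each point is a probe set, with its Atg7 minus control difference on the x axis and its dual minus Atg7 difference on the y axis (both log2); members are red, all others grey, and dashed lines mark the bounds of 0.5 and -0.4. The 71 members fill the lower right corner, grey points there were left out by name or by the order of the arrays, and 8 probe sets lie outside the axes.

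The members nearest the bounds were zgc:174888, mvp and zgc:162730. The first exceeded the control mean by 0.50 in Atg7 arrays, the second by 0.51 with dual minus Atg7 at -0.40, and the third stood at 0.54 and -0.40. Just outside lay cdcp1b at 0.49 and -0.73, sat1a.2 at 0.52 and -0.40 (-0.3953), si:dkey-33i11.9 at 0.51 and -0.39, and cldn23.1 at 0.62 and -0.39. Membership near the bounds therefore rests on hundredths of a log2 unit or less.

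The largest Atg7 minus control difference of a named member was that of scamp5a, which encodes a secretory carrier membrane protein of vesicle traffic. It stood at 6.41, 6.43 and 6.29 in Atg7 arrays, at 5.09, 4.93 and 5.04 in dual arrays, at 5.08 in the Bdh2 array and at 4.95, 5.23 and 5.23 in control arrays. Its Atg7 arrays, 2.37-fold above controls, stood apart, and the other 7 arrays lay in one range. A probe set without a gene name had the largest Atg7 minus control difference of all members, with a mean of 5.34 ± 0.25 in Atg7, 3.20 ± 0.16 in dual and 3.61 ± 0.068 in control arrays (SD, n = 3 each), with the Bdh2 array at 3.74.

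The named members were sorted into role groups after their values were seen, so the sizes of these groups have no baseline. Among members with immune roles, 9 genes act in complement, clotting, prostaglandin synthesis, acute phase transcription or the interferon response, or encode an extracellular chaperone. Their Atg7 minus control differences were 0.55 to 0.91, and their dual minus control differences -0.30 to 0.20. The complement gene c6.2, whose product belongs to the membrane attack complex, stood at 8.38, 8.42 and 8.32 in Atg7 arrays, at 7.25, 7.14 and 7.11 in dual arrays, at 7.52 in the Bdh2 array and at 7.50, 7.38 and 7.52 in control arrays. The dual arrays of c6.2 lay below the controls as well as below the Atg7 arrays. The complement gene c4b averaged 7.94 ± 0.070 in Atg7, 7.20 ± 0.093 in dual and 7.39 ± 0.064 in control arrays, and cpn1, a carboxypeptidase N subunit that inactivates complement and kinin peptides, 10.4 ± 0.034, 9.66 ± 0.028 and 9.86 ± 0.032 (SD, n = 3 each). Both were lower still in the Bdh2 array, at 6.56 for c4b and 9.31 for cpn1.

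cebpd and cebpb encode C/EBP transcription factors that drive acute phase genes. cebpd stood at 9.08, 9.21 and 8.93 in Atg7 arrays, at 8.36, 8.41 and 8.39 in dual arrays, at 8.37 in the Bdh2 array and at 8.41, 8.28 and 8.33 in control arrays. cebpb averaged 8.74 ± 0.048 in Atg7, 8.20 ± 0.068 in dual and 8.12 ± 0.13 in control arrays (SD, n = 3 each). Its Bdh2 array, unlike that of cebpd, lay above all control and dual arrays, at 8.39. For both, the dual arrays overlapped the controls. A second cebpd probe set, close to the lowest values of the array at 2.96 in Atg7 arrays, differed by 0.0058 in Atg7 minus control.

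ptgs2a, a cyclooxygenase that makes prostaglandins, stood at 7.79, 7.77 and 7.74 in Atg7 arrays, at 6.93, 6.90 and 6.98 in dual arrays, at 7.20 in the Bdh2 array and at 7.18, 7.20 and 7.22 in control arrays. The 3 groups of 3 did not overlap, and the Bdh2 array lay within the control range. clu, the extracellular chaperone clusterin, averaged 7.53 ± 0.24 in Atg7, 6.74 ± 0.088 in dual and 6.68 ± 0.053 in control arrays, and tfpia, an inhibitor of the start of clotting, 7.89 ± 0.15, 7.42 ± 0.14 and 7.21 ± 0.12 (SD, n = 3 each). isg15, a ubiquitin-like protein induced by interferon, had the widest Atg7 arrays of this group, at 5.17, 5.39 and 4.87, against 4.64, 4.38 and 4.44 in dual and 4.68, 4.59 and 4.51 in control arrays.

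**Figure D2:**
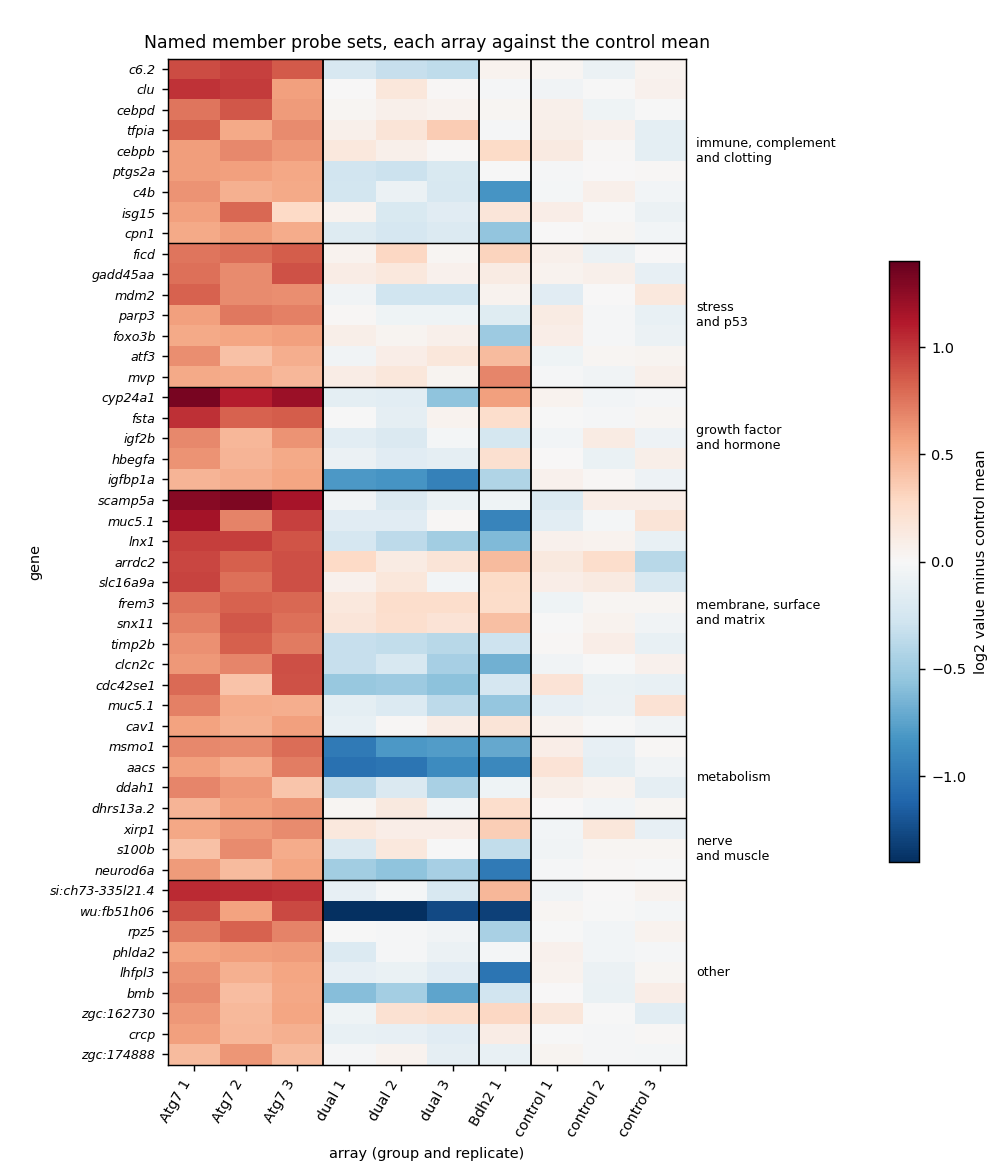
Rows are the 49 member probe sets with 1 gene symbol, grouped by role and ordered within a group by their mean difference in Atg7 arrays, columns are the 10 arrays, and colour is the log2 value minus the control mean of that probe set (scale limited to -1.4 and 1.4). All Atg7 columns are red, as the rule requires; the dual and Bdh2 columns are pale for genes such as cebpd and dark blue for msmo1, aacs and wu:fb51h06, and the Bdh2 column is red for mvp (0.68 above the control mean) and cyp24a1 (0.57).

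The group of stress and p53 genes held 7 members, with Atg7 minus control between 0.51 and 0.80. mdm2, the ubiquitin ligase that p53 induces and that degrades it, stood at 8.59, 8.43 and 8.42 in Atg7 arrays, at 7.72, 7.49 and 7.48 in dual arrays, at 7.82 in the Bdh2 array and at 7.61, 7.77 and 7.92 in control arrays. gadd45aa, a growth arrest gene induced by DNA damage, averaged 5.68 ± 0.11 in Atg7, 5.01 ± 0.046 in dual and 4.91 ± 0.11 in control arrays, and parp3, an enzyme of the DNA break response, 6.47 ± 0.087, 5.77 ± 0.045 and 5.80 ± 0.11 (SD, n = 3 each). In all 3 genes the dual arrays overlapped the controls.

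Of the other members of this group, atf3, mvp and foxo3b were past the threshold in Bdh2 minus control, as tested further on, and ficd was not. atf3, a stress-induced transcription factor, stood at 6.65, 6.41 and 6.51 in Atg7 arrays, at 5.96, 6.10 and 6.16 in dual arrays, at 6.45 in the Bdh2 array and at 5.94, 6.03 and 6.04 in control arrays. mvp, the main protein of vault particles, stood at 9.31, 9.30 and 9.24 in Atg7 arrays, at 8.89, 8.93 and 8.82 in dual arrays, at 9.46 in the Bdh2 array and at 8.76, 8.72 and 8.85 in control arrays. For these 2 genes, alone among the 71 members, the Bdh2 array was not below all 3 Atg7 arrays. foxo3b, a FoxO transcription factor of the stress response, ran the other way, at 9.28 ± 0.019 in Atg7, 8.79 ± 0.024 in dual and 8.72 ± 0.088 in control arrays (SD, n = 3 each), with the Bdh2 array at 8.22. Its second probe set, not a member, had the opposite sign in Bdh2 minus control, at 0.24. ficd, the enzyme that adds and removes AMP on the chaperone BiP, averaged 5.25 ± 0.053 in Atg7, 4.57 ± 0.14 in dual and 4.45 ± 0.076 in control arrays, but its other 2 probe sets were at -0.066 and -0.23 in Atg7 minus control.

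The group of growth factor and hormone genes held 5 members. cyp24a1, the hydroxylase that inactivates vitamin D, stood at 5.27, 5.05 and 5.14 in Atg7 arrays, at 3.80, 3.80 and 3.38 in dual arrays, at 4.51 in the Bdh2 array and at 3.99, 3.91 and 3.93 in control arrays, and a second probe set of the gene showed no such difference (-0.012 in Atg7 minus control). fsta, follistatin, which binds and blocks activins, stood at 7.90, 7.70 and 7.72 in Atg7 arrays, at 6.87, 6.75 and 6.92 in dual arrays, at 7.12 in the Bdh2 array and at 6.87, 6.86 and 6.90 in control arrays. The second fsta probe set differed in the same directions, by 0.42 in Atg7 minus control and -0.74 in dual minus Atg7.

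hbegfa, a ligand of the EGF receptor released from the cell surface, averaged 8.38 ± 0.078 in Atg7, 7.71 ± 0.036 in dual and 7.83 ± 0.088 in control arrays, and the growth factor gene igf2b 7.74 ± 0.11, 7.03 ± 0.094 and 7.16 ± 0.096 (SD, n = 3 each). igfbp1a, which binds insulin-like growth factors, stood at 9.90, 9.93 and 9.98 in Atg7 arrays, at 8.62, 8.61 and 8.48 in dual arrays, at 9.01 in the Bdh2 array and at 9.48, 9.44 and 9.36 in control arrays. The Bdh2 array and all dual arrays of igfbp1a lay below the controls. Its second probe set gave 0.48 in Atg7 minus control and -1.38 in dual minus Atg7.

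The group of membranes, cell surface and matrix held 11 genes in 12 member probe sets, scamp5a among them. muc5.1, a gel-forming mucin, was the 1 named gene with 2 member probe sets. The first stood at 7.04, 6.56 and 6.83 in Atg7 arrays, at 5.71, 5.71 and 5.89 in dual arrays, at 4.94 in the Bdh2 array and at 5.72, 5.84 and 6.05 in control arrays, and the second averaged 6.11 ± 0.11 in Atg7, 5.31 ± 0.12 in dual and 5.54 ± 0.17 in control arrays (SD, n = 3 each), and the Bdh2 array stood at 4.99. timp2b, an inhibitor of matrix metalloproteinases, averaged 5.83 ± 0.097 in Atg7, 4.74 ± 0.029 in dual and 5.09 ± 0.099 in control arrays (SD, n = 3 each), so its dual arrays were below the controls. frem3, which encodes a basement membrane protein, and snx11, a sorting nexin of endosomes, had dual arrays above the controls, by 0.21 and 0.20. snx11 averaged 8.28 ± 0.086 in Atg7, 7.69 ± 0.034 in dual and 7.50 ± 0.051 in control arrays (SD, n = 3 each).

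The remaining genes of this group were lnx1, a ubiquitin ligase known for targeting the Notch regulator Numb, at 0.94 in Atg7 minus control, arrdc2, which encodes an arrestin-domain protein, at 0.89, slc16a9a, of the monocarboxylate transporter family, at 0.87, the chloride channel gene clcn2c at 0.73, cdc42se1, an effector of the GTPase Cdc42, at 0.70 and cav1, the main protein of caveolae, at 0.55. One control array of arrdc2 was low, at 6.86 against 7.38 and 7.49 in the others, and the second arrdc2 probe set was at -0.032. Of the other cav1 probe sets, 2 had both signs of the rule (0.41 and 0.31 in Atg7 minus control, -0.66 and -0.21 in dual minus Atg7), and the third, at a level of 3.89 in Atg7 arrays, was at 0.15 and 0.040.

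Among metabolic genes, msmo1 and aacs were the most strongly lowered in dual embryos. msmo1 encodes an oxidase of cholesterol synthesis and stood at 6.02, 6.004 and 6.13 in Atg7 arrays, at 4.35, 4.54 and 4.57 in dual arrays, at 4.63 in the Bdh2 array and at 5.44, 5.23 and 5.37 in control arrays. aacs encodes the enzyme that activates acetoacetate for lipid synthesis and stood at 5.29, 5.22 and 5.42 in Atg7 arrays, at 3.67, 3.68 and 3.83 in dual arrays, at 3.80 in the Bdh2 array and at 4.90, 4.57 and 4.66 in control arrays. In both genes the arrays fell into 3 separate levels, with Atg7 highest, as the rule requires, controls between, and the dual and Bdh2 arrays together at the bottom. The dual and Bdh2 values of aacs were low for arrays with medians of 6.33 to 6.38. Whether differences were compressed there was not tested. ddah1, which degrades methylated arginines that inhibit nitric oxide synthase, averaged 4.58 ± 0.16 in Atg7, 3.68 ± 0.13 in dual and 4.02 ± 0.11 in control arrays, and the dehydrogenase family gene dhrs13a.2 7.86 ± 0.072, 7.35 ± 0.095 and 7.31 ± 0.039 (SD, n = 3 each).

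The nerve and muscle group held neurod6a, a neuronal transcription factor, s100b, a calcium-binding protein known from glia, and xirp1, an actin-binding protein of striated muscle. neurod6a stood at 6.49, 6.34 and 6.45 in Atg7 arrays, at 5.41, 5.33 and 5.44 in dual arrays, at 4.91 in the Bdh2 array and at 5.88, 5.91 and 5.89 in control arrays. Its levels thus took 4 steps without overlap. s100b and xirp1 were low on this array, averaging 4.99 ± 0.13 and 4.85 ± 0.059 in Atg7, 4.44 ± 0.18 and 4.36 ± 0.028 in dual and 4.46 ± 0.040 and 4.24 ± 0.14 in control arrays (SD, n = 3 each). Of the other 9 named members, bmb, needed for nuclear fusion in early zebrafish embryos, and wu:fb51h06 were at -0.60 and -1.39 in dual minus control, and si:ch73-335l21.4, rpz5, phlda2, lhfpl3, crcp, zgc:162730 and zgc:174888 at -0.13 to 0.14. All dual arrays lay below all control arrays in bmb, wu:fb51h06, lhfpl3 and crcp.

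**Figure D3:**
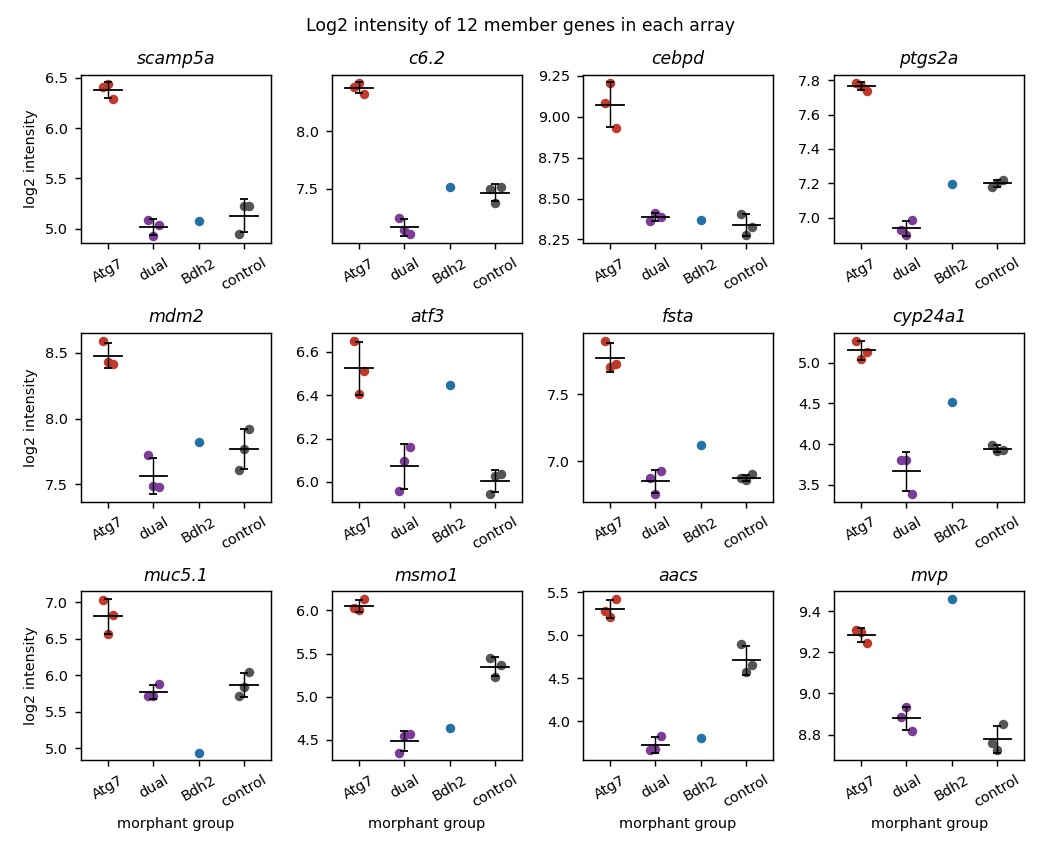
Each panel gives the log2 intensity of 1 member gene in every array (points), with the group mean and SD (bars, n = 3) for the Atg7, dual and control groups and 1 point for the single Bdh2 array. The y axes differ between panels and do not start at 0. The dual arrays overlap the control arrays in scamp5a, cebpd, mdm2, atf3, fsta, muc5.1 and mvp. They lie below the control arrays in c6.2, ptgs2a, cyp24a1, msmo1 and aacs. The Bdh2 array lies within or above the Atg7 arrays in atf3 and mvp.

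Whether the members returned to the control level in dual embryos was read from dual minus control. The rule holds both groups below the Atg7 arrays, so this is a description. Against the controls 25 members were past the threshold as lower in dual embryos, beside 15.9% of all probe sets, and 5 as higher, beside 16.7% (30 in all, beside 32.5%). The dual and control arrays did not overlap in 38 members, beside 46.4% of all probe sets. In 32 of these the dual arrays were the lower ones, beside 23.3%. The median of dual minus control was -0.12, and the range ran between -1.54 and 0.57. The lowest named genes were wu:fb51h06 (-1.39), aacs (-0.98), msmo1 (-0.86), igfbp1a (-0.86) and bmb (-0.60). The highest named were frem3 (0.21), tfpia (0.20), snx11 (0.20), arrdc2 (0.19) and zgc:162730 (0.14), and of these frem3 and snx11 were past the threshold. The frem3 call ended without control replicate 1 or dual replicate 2, and that of snx11 without control replicate 1 or 3 or dual replicate 2 or 3. The 5 higher calls became 1 without control replicate 1 or dual replicate 2 and 3 without dual replicate 1 or 3.

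The Bdh2 array was not used by the rule. Compared with controls, 22 of 71 members were lower and 8 higher past the threshold (limma, adjusted p under 0.05), beside 13.2% lower and 15% higher over all probe sets (30 in all, beside 28.2%). The control arrays were used by the rule and sit below the Atg7 arrays by choice, and the single Bdh2 array borrows the spread of the other groups and has no replicate check. The Bdh2 array lay below all 3 Atg7 arrays in 69 of 71 members. Members were chosen for high Atg7 arrays, so the rule favours this count and nothing is read from it. Against the control arrays, the Bdh2 array lay below all of them in 34 members and above all of them in 23. Over all probe sets, 32.5% lay below and 44.1% above the control arrays.

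Of the named members lower in the Bdh2 array, the largest falls were those of wu:fb51h06 (-1.30 ± 0.13, adjusted p = 2.18e-05 by limma), lhfpl3 (-1.02 ± 0.087, adjusted p = 5.57e-06), neurod6a (-0.99 ± 0.086, adjusted p = 6.74e-06), muc5.1 (-0.93 ± 0.16, adjusted p = 0.00125) and aacs (-0.91 ± 0.13, adjusted p = 0.000273; SE, log2). c4b, msmo1, clcn2c, lnx1, cpn1, foxo3b, rpz5 and igfbp1a fell by 0.83, 0.71, 0.67, 0.62, 0.55, 0.51, 0.46 and 0.42. The second muc5.1 member fell by 0.54, whereas the second foxo3b probe set, not a member, was at 0.24. The largest rises were those of mvp (0.68 ± 0.086, adjusted p = 0.000118), cyp24a1 (0.57 ± 0.15, adjusted p = 0.0132), si:ch73-335l21.4 (0.46 ± 0.090, adjusted p = 0.00251), atf3 (0.44 ± 0.11, adjusted p = 0.00954) and snx11 (0.42 ± 0.089, adjusted p = 0.00432). The rises of xirp1 (0.35, adjusted p = 0.0273) and frem3 (0.26, adjusted p = 0.0347) ended under some alternatives, with adjusted p up to 0.0815 and 0.0881. In the same array 8 of 11 neuron markers and 11 of 13 skeletal muscle markers were lower than in controls, with summed levels (log2) of 12.8 in Bdh2 against 12.87 to 12.97 in control arrays and of 16.6 against 17.1; their part in the neurod6a and xirp1 values was not tested.

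**Figure D4:**
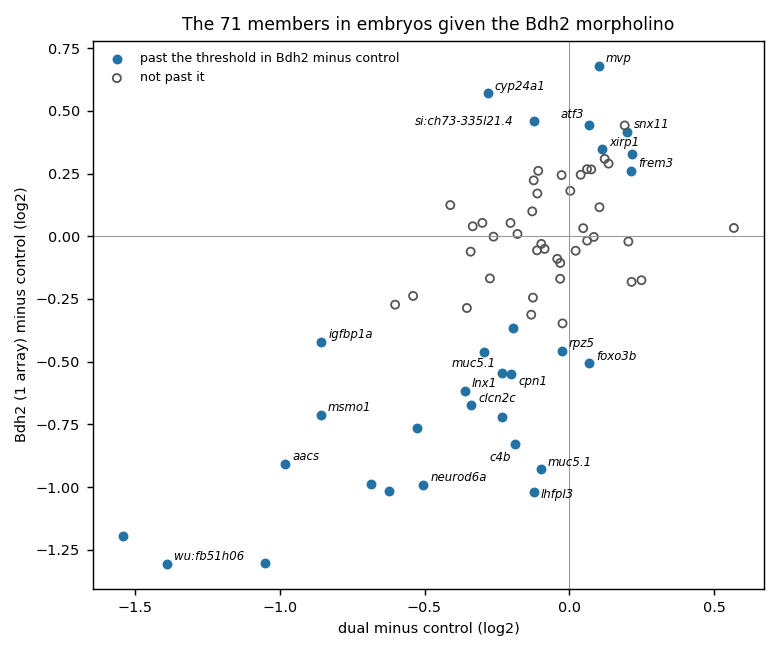
Each point is 1 of the 71 members, with dual minus control on the x axis and the single Bdh2 array minus control on the y axis (both log2); filled points passed the threshold in Bdh2 minus control, and named ones are labelled. Both axes share the control arrays. Points at the lower left, such as aacs and msmo1, were below controls in both kinds of embryo, and mvp, cyp24a1 and atf3 lie near 0 or to its left on the x axis but above 0 on the y axis.

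Some members were also above controls in the dual embryos, which carry the Atg7 morpholino too, or in the Bdh2 array. Past the threshold against controls, 10 members were higher in dual embryos or in the Bdh2 array, beside 22.4% of all probe sets, and 3 of them in both (frem3, snx11 and an unnamed probe set), beside 9.24%. Both comparisons share the control arrays, and the higher calls in dual embryos are those that single arrays decide. In 29 members neither comparison passed the threshold, in either direction, beside 57.4% of all probe sets. These included scamp5a, fsta, arrdc2, clu, gadd45aa, cebpd, cebpb, mdm2, parp3, cav1 and hbegfa. Another 15 were lower than controls in both, beside 8.09% of all probe sets: lnx1, wu:fb51h06, clcn2c, msmo1, aacs, cpn1, neurod6a, igfbp1a and 7 probe sets without a single gene symbol. Lower in dual embryos, without a call in the Bdh2 array, were c6.2, timp2b, cdc42se1, ptgs2a, ddah1 and bmb. Lower in the Bdh2 array, without a call in dual embryos, were muc5.1, rpz5, lhfpl3, foxo3b and c4b. Between dual and Bdh2 embryos 19 members were past the threshold, 11 as higher in dual embryos (beside 6.53% of all probe sets) and 8 as lower (beside 5.53%). In the departure from additivity, which is dual minus Atg7 minus Bdh2 plus control, 46 members were past it (beside 8.13%), and in all 46 the value was below 0 (beside 4.32%, with 3.81% above); the rule used 3 of these 4 groups. Across the array 90 of 15502 probe sets were at least 2-fold lower in both Bdh2 minus control and dual minus Atg7. Of the 71 members 4 were among them (wu:fb51h06 and 3 probe sets without a single symbol). The rule chose members as lower in dual minus Atg7, so nothing is read from this count. A pair of unnamed members with the same number in their probe set names is counted separately throughout.

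Other probe sets of the same genes had the signs of the rule in part. Of 14 such probe sets from 11 member genes, 10 were above 0 in Atg7 minus control, 10 below 0 in dual minus Atg7 and 8 had both signs. Both contrasts use the Atg7 arrays, which favours opposite signs, and the share over all probe sets was not computed. Nothing is therefore read from these counts. The differences of these other probe sets were mostly smaller, as for frem3 (0.30 and -0.26), tfpia (0.27 and -0.47), ddah1 (0.084 and -0.29) and foxo3b (0.11 and -0.092). Among members, 3 probe sets, those of cav1 and mvp included, carry a suffix that marks probes shared with other transcripts.

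The same pathways were then read in lists that reach beyond the members, each gene by its brightest probe set. In Atg7 minus control 6.26% of all probe sets rose and 3.64% fell. These shares also cover dim and unnamed probe sets, so they are not a like baseline for the lists. With the fit limited to probe sets with a mean of at least 5, 1828 were called, against 1536 with all. The list counts also hold members, which the rule chose by these same contrasts. In the list of immediate early and MAP kinase feedback genes, which respond within minutes to growth factors and stress, 15 of 57 measured genes rose and 1 fell, with a median of 0.10. Of these, atf3, gadd45aa and hbegfa were members; the largest rises outside the members were those of ier2a (0.61 ± 0.063, adjusted p = 0.000116 by limma) and the kinase gene sik1 (0.50 ± 0.14, adjusted p = 0.044). In dual minus Atg7 22 of the 57 fell and 3 rose, beside 17.2% and 15.8% of all probe sets, but ier2a and sik1 were at -0.039 and -0.16, neither past the threshold.

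In the p53 response and cell death list 12 of 42 genes rose and 2 fell in Atg7 minus control (median 0.065), among them the members mdm2 and foxo3b. mcl1b, a survival protein of the Bcl-2 family, rose by 0.49 ± 0.062 (adjusted p = 0.000465 by limma) and the ribonucleotide reductase gene rrm2b fell by 0.55 ± 0.077 (adjusted p = 0.000924). Both had the opposite sign in dual minus Atg7, with mcl1b at -1.17 and rrm2b at 0.67, and 16 of the 42 fell and 6 rose. In dual minus control mcl1b was at -0.68, below the controls, and rrm2b at 0.12. The list of acute phase and complement genes had 6 of 31 higher and 1 lower in Atg7 minus control (median 0.049), of which c4b, c6.2, cebpb and cebpd were members and the others were hp (0.38) and cp (0.37), the plasma proteins haptoglobin and ceruloplasmin. In dual minus Atg7 15 of the 31 fell, with cp at -2.14, and 6 rose. hp was at 0.089. The 15 included genes not past the threshold in Atg7 minus control, such as cfd (0.12 there and -1.99 in dual minus Atg7). Against controls, 12 of the 31 were lower and 5 higher in dual embryos, beside 15.9% and 16.7% of all probe sets. cp fell below the controls, at -1.77 in dual minus control and -2.41 in Bdh2 minus control.

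Epidermis and cell junction genes had 20 of 67 higher and 0 lower in Atg7 minus control (median 0.16), of which 1, muc5.1, was a member. The desmosome genes dsg2.1 and pkp1b rose by 0.58 ± 0.072 and 0.53 ± 0.084 (adjusted p = 0.000429 and 0.0021 by limma). Unlike the members, they were at -0.0031 and -0.080 in dual minus Atg7, although 27 of the 67 fell there and 8 rose. In the matrix, adhesion and wound repair list 5 of 42 rose and 0 fell, among them the member timp2b and the integrin genes itga5 (0.45) and itga6b (0.32), and in dual minus Atg7 21 of 42 fell, itga5 by 1.16, and 4 rose. In dual minus control itga5 was at -0.71 and itga6b at 0.099. There 14 of the 42 were lower and 1 higher, beside 15.9% and 16.7% of all probe sets.

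The other lists were read in the same way. In Atg7 minus control 4 of 20 NF-kB and cytokine genes rose and 0 fell, with the chemokine gene cxcl12a at 0.46 and the NF-kB inhibitor gene nfkbiaa at 0.46, and 6 of the 20 fell and 0 rose in dual minus Atg7. The JAK-STAT list had 4 of 19 higher (mcl1b, which it shares with the p53 list, among them) and 2 lower, pim2 by 0.44. The prostanoid list had 4 of 20 higher, the member ptgs2a and ptgdsb.1 (0.42) among them, and 0 lower. The member with several symbols is annotated to ptgdsb.1 and ptgdsb.2, and stood at 0.51 and, in dual minus Atg7, at -1.13. Actin and membrane traffic genes had 9 of 57 higher and 3 lower, with tagln at 0.44 and lcp1 at -0.40. Autophagy and lysosome genes had 8 of 46 higher and 2 lower, with calcoco1a at 0.43 and laptm4b at 0.35, and the oxidant and metal list 6 of 35 higher and 0 lower, with nfe2l2a, the main regulator of antioxidant genes, at 0.53 and gsto2 at 0.50. The interferon and antigen presentation list had 2 of 17 higher, b2m at 0.47 and isg15, and 2 lower, cd74b by 0.31. The unfolded protein and ATF4 list had 1 of 37 higher, atf4b at 0.52, and 3 lower, mthfd2 by 0.32, and 21 of the 37 fell in dual minus Atg7.

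**Figure D5:**
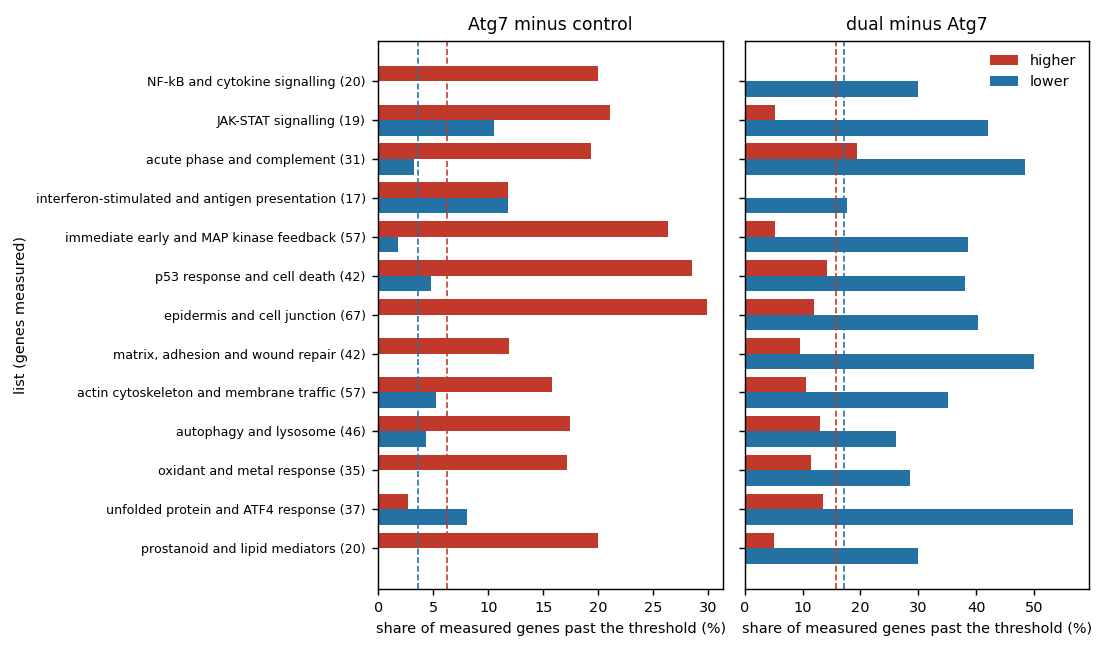
Bars give the share of measured genes of each list (number measured in brackets) past the threshold as higher (red) or lower (blue), for Atg7 minus control on the left and dual minus Atg7 on the right; dashed lines give the same shares over all probe sets (6.26% higher and 3.64% lower on the left, 15.8% and 17.2% on the right). Nearly all lists exceed the red line on the left (the unfolded protein and ATF4 list, with 1 of 37, does not) and the blue line on the right, lists without a member included. On the left the blue line is also exceeded by the JAK-STAT, interferon, unfolded protein and ATF4, actin, p53 and autophagy lists. On the right the acute phase list exceeds the red line. The lines also cover dim and unnamed probe sets and are not a like baseline. The bars count members, which the rule chose as higher on the left and lower on the right. Of the higher genes on the left, members were 4 of 6 in the acute phase list and 1 of 2 in the interferon list.

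Counts over lists moved with single arrays in Atg7 minus control. The 20 rises of the epidermis list became 10 and 12 without Atg7 replicates 1 and 3 and 12, 10 and 9 without control replicates 1, 2 and 3. The 12 of the p53 list became 5 without Atg7 replicate 2, control replicate 2 or control replicate 3, the 15 of the immediate early list became 9 without control replicate 2, and the 5 of the matrix list became 3 without Atg7 replicate 1 or control replicate 2 or 3. The 9 of the actin list became 5 without Atg7 replicate 2 or 3 or control replicate 2. The 8 of the autophagy list became 3 to 5 without Atg7 replicate 1 or 3 or any control replicate, the 6 of the oxidant list became 3 without Atg7 replicate 2 or control replicate 2 or 3, the 4 of the prostanoid list became 2 without Atg7 replicate 1 or 3 or control replicate 2 or 3, and the 2 of the interferon list became 1 and 0 without control replicates 1 and 3. Over all probe sets 1536 passed the threshold with all arrays, and 937, 811 and 902 without control replicates 1, 2 and 3 and 1011 without Atg7 replicate 1. Leaving out an array also leaves fewer residual degrees of freedom.

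Markers of white blood cells were read beside the immune members. Of 14 measured myeloid markers 0 rose and 4 fell in Atg7 minus control, the neutrophil genes lyz (-0.50 ± 0.058, adjusted p = 0.000249 by limma) and mpx (-0.35 ± 0.071, adjusted p = 0.00879) and the leukocyte actin-binding genes lcp1 and coro1a (-0.40 and -0.27). Their summed level (log2) was 10.9 in each Atg7 array against 11.1 to 11.2 in control arrays. Of 10 liver markers 2 rose and 0 fell, with a summed level of 15.8 to 15.9 against 15.8. Of 17 epidermal markers 7 rose and 0 fell, at 15.9 against 15.8, and of 5 ionocyte and mucous cell markers 1 rose, the member muc5.1, and 0 fell, at 10.3 to 10.4 against 10.3 to 10.4. Among 11 neuron markers 6 rose and 0 fell, at 13.15 to 13.17 in Atg7 against 12.87 to 12.97 in control arrays, and dual arrays stood at 13.34 to 13.37. For 13 skeletal muscle markers 0 rose and 1 fell, at 17.1 in both groups. In dual minus Atg7 11 of the epidermal markers fell and 1 rose, with summed levels of 15.72 to 15.77 in dual and 15.76 to 15.77 in control arrays. There 7 muscle markers fell and 1 rose, 4 liver markers fell and 1 rose, and 3 ionocyte and mucous cell markers fell and 0 rose. Of the neuron markers 2 fell and 5 rose, and of the myeloid markers 1 fell and 3 rose. The part of myeloid, epidermal, ionocyte and mucous, liver, nerve and muscle cells in the members' values was not tested.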

How the data were processed

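Whole zebrafish embryos of 4 morphant groups were profiled on 10 Affymetrix arrays. The deposited log2 intensities hold 1 value per probe set; Affymetrix Expression Console is named per the submitters' processing notes, and the summary method, background correction and normalization are not given in the sources used here. The log2 scale was read from the range of 2.48 to 14.9. Such a summary can compress differences near background, and the number of arrays limits the precision.

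Of 15617 probe sets 115 AFFX controls were left out. Symbols came from the platform annotation (1 symbol for 10795, several for 135, none for 4572), updated by Entrez ID through RefSeq (GRCz12tu), which matched 48 of 49 named members. All 10 arrays were fitted in 4 groups (6 residual degrees of freedom) by limma 3.58.1 (lmFit, eBayes) under R 4.3.3, tested on simulated data, and p-values were adjusted by Benjamini-Hochberg over all 15502 probe sets. Errors beside log2 differences are standard errors.

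The members, 13 pathway lists and 7 marker lists were chosen with earlier results of these data known. Where a listed gene had several probe sets, the brightest was used. Named genes were the 15 largest members, members in a list, the 5 lowest and highest in dual minus control, up to 5 of each sign in Bdh2 minus control, those nearest the bounds, genes with 2 member probe sets and 2 non-members per list; the other members, the role groups, lyz, mpx and coro1a were chosen after their values were seen. The alternatives tried are in the closing section.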

Additional observations from a re-analysis of the deposited data

Results flagged for a closer look

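The difference between the effect of the Atg7 morpholino with and without the Bdh2 morpholino is given as a description, since the rule favours values below 0. In the departure from additivity (dual minus Atg7 minus Bdh2 plus control, on the log2 scale) 46 of 71 members were past the threshold by limma, and in all 46 it was below 0, beside 4.32% of all probe sets below 0 and 3.81% above. The median was -0.74, and 68 of 71 were below 0. The rule itself used the Atg7, dual and control arrays of this contrast, and the fourth group is a single array, so nothing is read from the count. Members without a departure past the threshold included muc5.1 (-0.11), c4b (0.090), foxo3b (0.019), cpn1 (-0.20), neurod6a (-0.044) and lhfpl3 (0.34), in which the Bdh2 array was itself below the controls. They also included tfpia (-0.45), with the Bdh2 array within the control range. Other members with the Bdh2 array below the controls were further below 0, such as igfbp1a (-0.95), wu:fb51h06 (-0.88) and msmo1 (-0.85).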

How the results depend on the processing

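The rule gave 143 members with bounds of 0.4 and -0.3 and 25 with bounds of 0.7 and -0.6, against 71. It gave 67 to 82 without single arrays, of which 59 to 71 were members in the full data, and 54 among probe sets with a mean of at least 5, 63 with median centring (all shared) and 67 with quantile normalization (66 shared). The 1536 calls of Atg7 minus control became 811 to 1560 without single arrays, 1006 with the replicate number as a block and 596 at a threshold of 0.01, and the 5115 of dual minus Atg7 became 4056 to 5145 without single arrays and 3254 at 0.01. The replicate numbers did not pair the samples (deviations of same-numbered arrays correlated at -0.38 to 0.20), and with the block 29 and 28 members were called in dual minus control and in Bdh2 minus control, against 30 in each. Over all alternatives these 2 counts ranged between 21 and 33 and between 25 and 33. Named calls kept their direction throughout: 12 of 16 in dual minus control and 19 of 21 in Bdh2 minus control passed under every alternative that could be fitted, the exceptions being frem3, snx11, ddah1 and cpn1 in the first and frem3 and xirp1 in the second. Of 390 list counts in Atg7 minus control under alternatives, 278 stayed within 1.5 times; the cause of the other moves was not tested.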

Other observations

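Genes of cholesterol synthesis other than msmo1 were read after its values had been seen, so they are given without a test. Of 10 further genes measured, 8 were below 0 in dual minus Atg7 (median -0.24) and 9 in dual minus control (median -0.22), whereas Atg7 minus control had a median of 0.022 and Bdh2 minus control of -0.022. insig1, whose product holds back the sterol-sensing pathway and is itself induced by it, was nearest to the members, at 0.37 in Atg7 minus control and -0.88 in dual minus Atg7. hmgcs1, an early enzyme of the pathway, was at 0.097 and -0.84, nsdhl at 0.038 and -0.49 and fdft1 at 0.14 and -0.46. acat2 ran the other way, at -0.29 and 0.49.

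Of 47 member genes placed in the RefSeq annotation (GRCz12tu), 6 lay on chromosome 25 (12.8%), beside 3.07% of the 8684 genes of the array. These were scamp5a, muc5.1, igf2b, phlda2, cav1 and bmb. The next largest share was that of chromosome 20, with 5 of the 47 (10.6%, beside 4.21%). igf2b and phlda2 were separated by 5 protein-coding genes and mdm2 and lhfpl3, on chromosome 4, by 9. On chromosome 5, 13 genes lay between ficd and isg15 and 27 between aacs and isg15. On chromosome 20, 33 lay between clu and atf3. No baseline was taken for these distances. The shares and distances were noticed after the positions had been seen and were not tested.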
